A study of Mus musculus with 6 samples.

Results

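Skeletal muscle is built under 4 related basic helix-loop-helix transcription factors, Myod1, Myf5, Myog and Myf6, which bind the E-box and switch on the genes of the sarcomere. Pax7 marks the satellite cells that precede them, and Mef2c, a MADS-box factor, binds many of the same promoters as their partner. The sarcomere itself is a lattice of thick filaments of myosin and thin filaments of actin, on which the troponin complex sets the response to calcium. Some sarcomas, rhabdomyosarcomas above all, keep these regulators on, so their level is a usual test of whether a sarcoma has a skeletal muscle character.

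The 30 genes described here are 6 of these regulators and 24 genes of the sarcomere, the acetylcholine receptor of the muscle surface and their companions. They were taken as every probe set annotated to exactly 1 of their symbols, which gave 52 of the 34945 probe sets with 1 symbol and 30 of 18193 named genes, and 2 further probe sets shared by Myh7 and Myh6 were left out. RNA came from cultured mouse sarcoma cells on a C57BL6/J background, harvested at confluence, of which 3 samples were null for Dicer and 3 heterozygous for it, so the cells of the comparison group also lack 1 copy. Dicer is the ribonuclease that releases mature microRNAs from their precursors. The labels give no driver of the deletion, no parent tumour and no statement that the samples of a group are separate lines or cultures, although the design text speaks of lines, so p-values cover no more than the spread among these 6 samples.

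Values are the authors' log2 GCRMA levels from 3′ expression arrays, and a probe set was tested where its mean over the 6 arrays reached 3. Below that value GCRMA leaves little but background: 78 of the 81 that detect receptors of smell and of trace amines, which such cells are not known to use, lay under it. The probe sets of the deleted gene, Dicer1, averaged 8.46 ± 0.09 and 8.39 ± 0.21 in null arrays and 8.32 ± 0.24 and 8.12 ± 0.43 in heterozygous arrays (SD, n = 3 each), and a probe set outside the deleted part, which the labels do not name, checks nothing. Among fixed markers of other cell types, 9 of 10 for fibroblasts reached the minimum, 5 of 10 for smooth muscle, 3 of 14 for cardiac muscle, 3 of 7 for epithelium, 2 of 6 for leukocytes, 1 of 6 for neural cells and 0 of 6 for endothelium. Heterozygous replicate 1 most often held the highest value and heterozygous replicate 3 the lowest. Replicate 1 held the highest value of the 6 arrays in 24.8% of all tested genes and the lowest in 16.3%. For replicate 3 these shares were 21.3% and 29.8%, and for null replicate 2, often extreme as well, 20.1% and 19.4%. The members' differences that rest on heterozygous replicate 1 or 3 are also given without it.

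Most of the skeletal muscle genes were at background in both groups. Of the 52 probe sets, 15 had a mean of at least 3 (28.8%, against 60.5% of all probe sets with 1 symbol), and these stood for 10 of the 30 genes. In 33 of the 37 dim probe sets every one of the 6 values lay under 3. None of the 10 tested genes was called different between Dicer null and Dicer heterozygous arrays in the moderated limma test, with p-values adjusted by Benjamini and Hochberg's method over all tested probe sets, where 3.46% of tested genes and 3.10% of tested probe sets were called. At an unadjusted p under 0.05 there was 1 of the 10, Mef2c, against 24% of all tested genes. The median log2 difference of the 10, null minus heterozygous, was -0.07, and that of all tested genes was -0.01. In bulk samples fewer cells with a transcript and less of it per cell cannot be told apart.

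**Figure D1:**
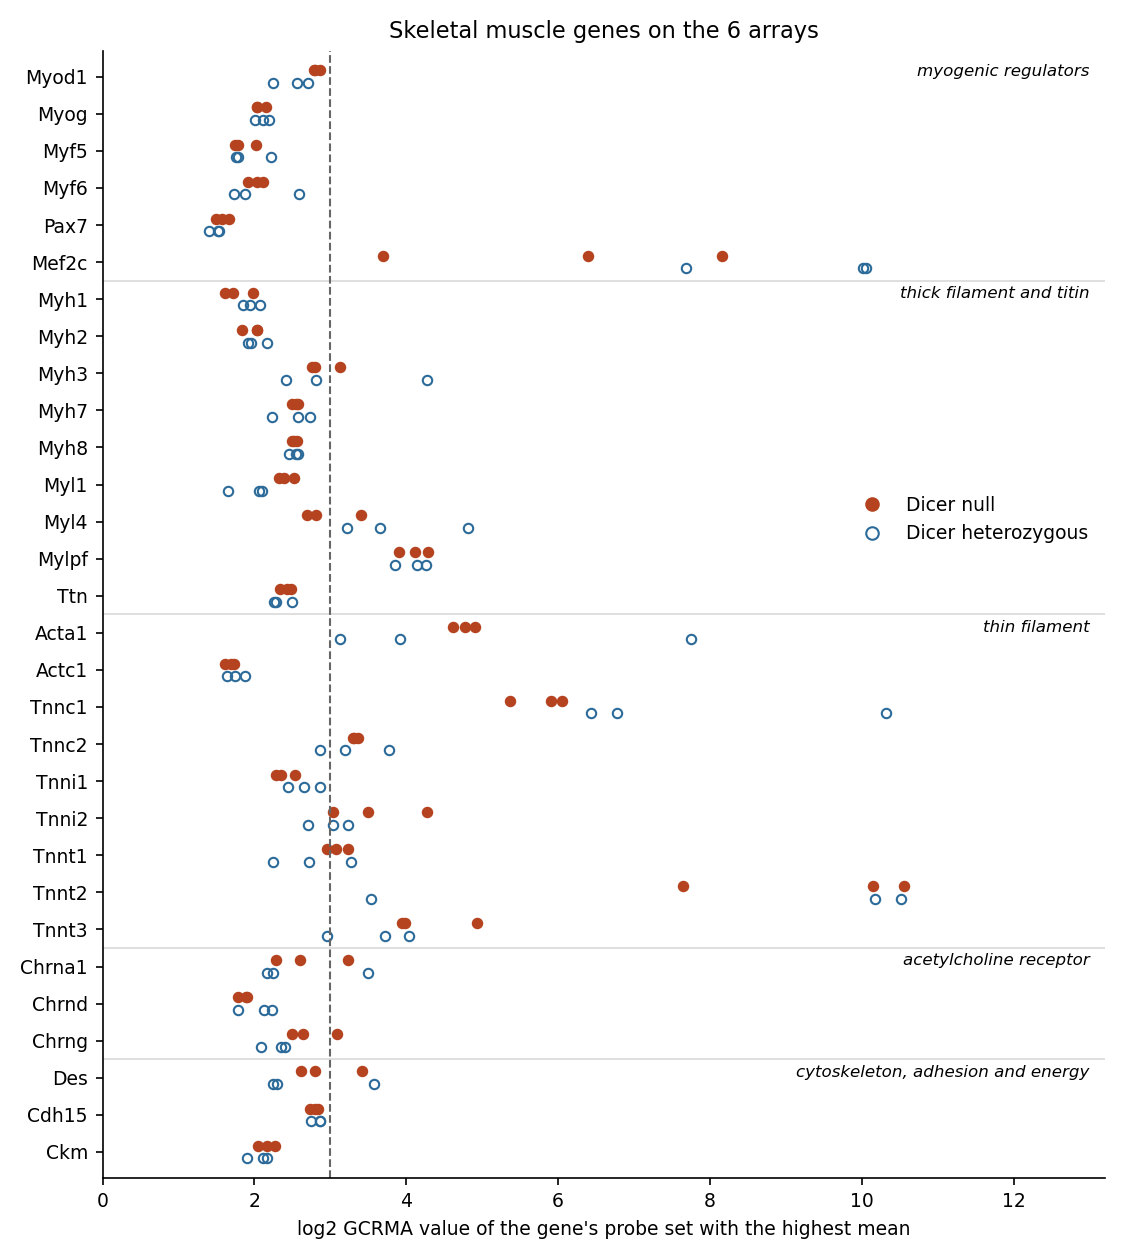
Log2 GCRMA value of each of the 30 genes in each array (horizontal axis, probe set with the highest mean), with null arrays as filled points above heterozygous arrays as open circles and the testing minimum of 3 as a dashed line. Mef2c, Tnnt2, Tnnc1 and Acta1 spread far to the right of the line, while 20 of the genes have no probe set with a mean of 3.

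The determination factors were dim in every array. Myod1, which can turn fibroblasts into muscle, had values of 2.80, 2.79 and 2.87 in null replicates 1 to 3 and 2.71, 2.56 and 2.24 in the heterozygous ones. The null values all lay above the heterozygous ones but all 6 were under the minimum. Such a separation held for 15.7% of all probe sets under the minimum and for 5 of the 37 dim muscle probe sets (13.5%), and a second Myod1 probe set lay lower still, with overlapping groups.

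Myog, which drives the terminal step of differentiation, lay between 2.01 and 2.19 in all 6 arrays. Myf5, the earliest of the family to appear in the embryo, lay between 1.75 and 2.22, and Myf6, the factor of mature fibres, between 1.73 and 2.59. Pax7, the satellite cell factor, ranged over its 2 probe sets between 1.11 and 1.70. No value of these 5 regulators in either group reached 3, so an effect of Dicer loss on them was not detectable on these arrays. The E-boxes of Myog are shown further on beside the promoters of genes that did have signal.

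Mef2c was the regulator with signal. Its probe set with the highest mean stood at 8.16, 6.39 and 3.69 in null replicates 1, 2 and 3, against 7.68, 10.01 and 10.05 in heterozygous replicates 1, 2 and 3. Null replicate 1 was above heterozygous replicate 1, so the groups overlapped, and null replicate 3 was far below the rest of its group. The means were 6.08 ± 2.25 in null and 9.25 ± 1.36 in heterozygous arrays (SD, n = 3 each). The log2 difference of -3.17 had an SE of 1.22 and an unadjusted 95% interval of -6.12 to -0.21, and did not pass (limma adjusted p = 0.191).

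The other 4 tested probe sets of Mef2c had the same order of groups, with log2 differences of -3.26, -2.83, -2.54 and -1.33, and limma adjusted p-values between 0.212 and 0.244. The one with -1.33 had null values of 2.98, 2.26 and 2.03, all under 3. It passed the minimum through heterozygous replicates 2 and 3 (4.30 and 4.40), so the size of its difference is not resolved. In all 5 of them null replicate 1 lay above heterozygous replicate 1, and null replicate 3 was the lowest array. Across the 6 arrays, which these probe sets share, their pairwise correlations were at least 0.91. Without null replicate 3 the difference of the brightest was -1.97, and without null replicate 1 it was -4.21, neither of them called. The spread inside each group, 4.47 log2 units between the highest and lowest null array and 2.37 between the heterozygous ones, was of the size of the difference. Mef2c is also expressed outside muscle, in neurons, endothelium, lymphoid cells and cardiac precursors, and its presence does not by itself mark a muscle cell.

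Titin and the myosin heavy chains, which form the thick filament and its scaffold, gave almost no signal. Myh1 and Myh2, of fast adult fibres, lay between 1.12 and 2.08 over 3 probe sets and between 1.84 and 2.17. Myh7, of slow fibres, lay between 2.23 and 2.73, and Myh8, the perinatal chain, between 2.46 and 2.57. Ttn, the giant protein that spans each sarcomere from Z-disc to M-line, had 6 probe sets, all between 1.35 and 2.58. None of these values reached 3 in either group.

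The embryonic heavy chain Myh3 just passed the minimum through 1 array. It stood at 2.76, 2.80 and 3.13 in null replicates 1 to 3 and at 4.27, 2.81 and 2.41 in heterozygous replicates 1 to 3. Only null replicate 3 and heterozygous replicate 1 were above 3, and the groups overlapped (log2 difference -0.27, interval -1.43 to 0.90, limma adjusted p = 0.782). Without heterozygous replicate 1 its mean was 2.78, under the minimum, and the untested difference was 0.29. At the edge of the minimum, Myh3 had a mean of 3.03 over the 6 arrays and Tnnt1, just outside it, a mean of 2.92.

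Among the myosin light chains, Myl4, of embryonic muscle and the atria, had values of 3.41, 2.81 and 2.69 in null replicates 1 to 3, against 3.22, 3.66 and 4.82 in heterozygous replicates 1 to 3. Heterozygous replicate 3 was highest, and null replicate 1 overlapped the heterozygous range (log2 difference -0.93, interval -2.0 to 0.14, limma adjusted p = 0.269). Without heterozygous replicate 3 the difference was -0.47. Mylpf, the regulatory light chain of fast fibres, was nearly level over the arrays, with 4.11, 3.91 and 4.29 in null and 4.26, 4.14 and 3.85 in heterozygous replicates 1 to 3. Its log2 difference of 0.02 had the interval -0.45 to 0.49. Myl1, the essential light chain of fast fibres, was dim, at 1.65 to 2.52, with the null arrays above the heterozygous ones by 0.48.

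In the thin filament Tnnt2, Tnnc1 and Acta1 had signal in at least some arrays, and their upstream sequences are shown beside that of Myog, which had none. Each is the stretch of 250 bases before a RefSeq transcript start (GRCm38.p6), read 5′ to 3′ on the gene's strand, with capitals for the M-CAT core CATTCC on either strand, which TEAD factors bind, and for the E-box CANNTG. They lie at chr1:135836084-135836333 on the plus strand for Tnnt2, chr14:31208062-31208311 on the plus strand for Tnnc1, chr8:123894776-123895025 on the minus strand for Acta1 and chr1:134289754-134290003 on the plus strand for Myog.
Tnnt2: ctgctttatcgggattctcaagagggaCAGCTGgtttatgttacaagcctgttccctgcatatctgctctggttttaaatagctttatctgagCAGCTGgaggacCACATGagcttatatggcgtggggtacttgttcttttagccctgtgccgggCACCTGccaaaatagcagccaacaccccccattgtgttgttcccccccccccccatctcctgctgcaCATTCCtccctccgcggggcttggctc
Tnnc1: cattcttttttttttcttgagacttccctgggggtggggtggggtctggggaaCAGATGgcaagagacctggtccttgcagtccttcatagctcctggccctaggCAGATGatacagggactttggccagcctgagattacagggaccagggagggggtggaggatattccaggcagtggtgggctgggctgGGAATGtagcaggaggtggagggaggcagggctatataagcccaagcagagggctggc
Acta1: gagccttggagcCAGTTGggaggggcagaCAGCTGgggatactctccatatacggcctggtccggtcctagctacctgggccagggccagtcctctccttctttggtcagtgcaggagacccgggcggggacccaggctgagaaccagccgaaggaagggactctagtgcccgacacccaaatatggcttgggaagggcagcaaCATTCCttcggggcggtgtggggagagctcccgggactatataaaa
Myog: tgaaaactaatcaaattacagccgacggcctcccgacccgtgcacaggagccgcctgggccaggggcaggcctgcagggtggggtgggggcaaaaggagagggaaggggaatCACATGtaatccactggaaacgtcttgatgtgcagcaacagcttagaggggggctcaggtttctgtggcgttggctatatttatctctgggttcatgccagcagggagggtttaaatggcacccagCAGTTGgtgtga
The M-CAT core began 27 bases before the start of Tnnt2, 58 before that of Tnnc1 and 46 before that of Acta1, and was not in the Myog window. Tnnt2 has a second listed start, whose window held no M-CAT core and 1 E-box.

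Of the 30 genes, 25 matched the RefSeq promoter table, with 30 windows. The M-CAT core was in 23.3% of these windows, in those of 7 genes (Acta1, Mef2c, Myh1, Myh7, Myl1, Tnnc1 and Tnnt2), and in 12.6% of the 32851 windows of all genes. The E-box was in 76.7% against 66.2%, and the MEF2 consensus in 3 windows, those of Myh1, Myh8 and Ttn (10%), against 2.92%. The CArG box, which serum response factor binds, was in 6.67% (Acta1 and Actc1) against 1.47%. Both strands were searched, and the motifs were chosen with the arrays' values known. Of the 7 genes with the M-CAT core, Mef2c, Tnnt2, Tnnc1 and Acta1 had signal, while Myh1, Myh7 and Myl1 were dim in all 6 arrays. Mylpf, Tnnc2 and Myh3, with an E-box but no M-CAT core, also reached the minimum (means of 4.09, 3.30 and 3.03). The part of the core in these levels was not tested.

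Tnnt2, the troponin T of heart and embryonic skeletal muscle, was bright in 4 of the 6 arrays. It stood at 10.15, 10.56 and 7.64 in null replicates 1 to 3, against 10.52, 10.18 and 3.54 in heterozygous replicates 1 to 3. Heterozygous replicate 3 lay -6.81 log2 units from the mean of the other two in its group, and null replicate 3 lay -2.72 units from the others of its own. The groups otherwise covered the same range, with means of 9.45 ± 1.58 in null and 8.08 ± 3.94 in heterozygous arrays (SD, n = 3 each). The log2 difference was 1.37, interval -3.38 to 6.12 (limma adjusted p = 0.718), and without heterozygous replicate 3 it was -0.90. A second probe set for Tnnt2, dimmer, followed the same arrays, with 8.38, 8.86 and 6.13 in null and 8.86, 8.37 and 2.02 in heterozygous replicates, and its remaining probe set was at background.

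Tnnc1, the troponin C of slow and cardiac muscle, was the tested member whose groups did not overlap. It had values of 5.91, 6.05 and 5.37 in null replicates 1 to 3, against 10.32, 6.77 and 6.44 in heterozygous replicates 1 to 3. All null values lay below the heterozygous ones, a separation found in 32.2% of all tested genes and 30.9% of tested probe sets, and heterozygous replicate 1 was 13.1-fold above the other heterozygous arrays. The log2 difference was -2.07 with an SE of 1.02 and an interval of -4.53 to 0.39, and did not pass (limma adjusted p = 0.280). Without heterozygous replicate 1 it was -0.83 (limma adjusted p = 0.170).

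Acta1, the actin of the adult skeletal thin filament, differed between arrays and not between the group means. It stood at 4.78, 4.61 and 4.91 in null replicates 1 to 3, against 7.75, 3.92 and 3.13 in heterozygous replicates 1 to 3. The null values were close together and lay inside the heterozygous range. Heterozygous replicate 1 was 18.7-fold above the other two arrays of its group. The log2 difference was -0.17, interval -2.95 to 2.62 (limma adjusted p = 0.95), and without heterozygous replicate 1 it turned to 1.24 (limma adjusted p = 0.0942).

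**Figure D2:**
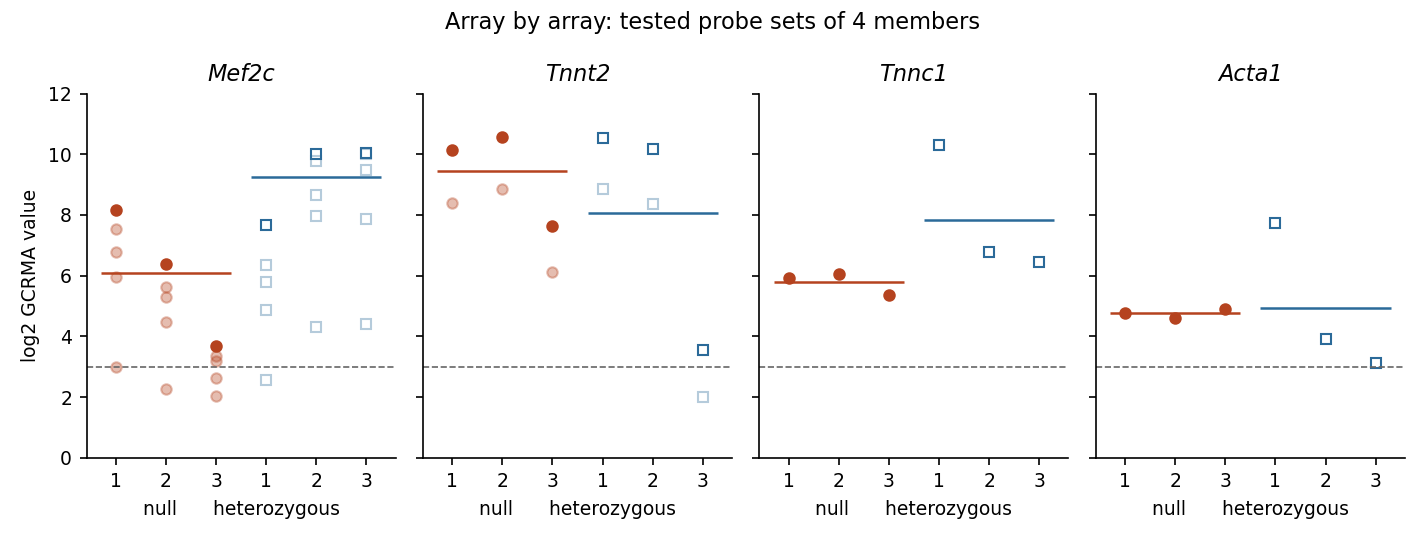
Log2 GCRMA value (vertical axis) in null replicates 1 to 3 (filled circles) and heterozygous replicates 1 to 3 (open squares) for Mef2c, Tnnt2, Tnnc1 and Acta1. Strong symbols and the group mean lines belong to the probe set with the highest mean, pale symbols to the other tested probe sets, and the dashed line is the minimum of 3. Heterozygous replicate 1 is the highest array for Tnnc1 (10.32) and Acta1 (7.75), and heterozygous replicate 3 is the lowest for Tnnt2 (3.54).

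The fast troponins had low values near the minimum. Tnnt3, fast troponin T, had 3.95, 4.93 and 3.98 in null against 4.04, 3.72 and 2.95 in heterozygous replicates 1 to 3 (log2 difference 0.72, interval -0.23 to 1.66). Tnni2, the fast inhibitory subunit, had 3.04, 4.28 and 3.50 in null against 3.23, 3.04 and 2.71 in heterozygous replicates (0.61, interval -0.22 to 1.45). In both genes null replicate 2 was the highest array and heterozygous replicate 3 the lowest, and the groups overlapped (limma adjusted p = 0.326 for Tnnt3 and 0.337 for Tnni2). Single arrays carried much of both differences. That of Tnnt3 was 0.39 without null replicate 2 and 0.41 without heterozygous replicate 3, and that of Tnni2 was 0.28 without null replicate 2. Tnnc2, fast troponin C, had 3.31, 3.30 and 3.36 in null against 3.77, 3.19 and 2.87 in heterozygous replicates (0.05, interval -0.57 to 0.66). Of the slow subunits other than Tnnc1, Tnni1 lay at 2.28 to 2.86 and Tnnt1 at 2.25 to 3.27. Actc1, the actin of heart and embryonic skeletal muscle, lay between 1.61 and 1.87 in all arrays.

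**Figure D3:**
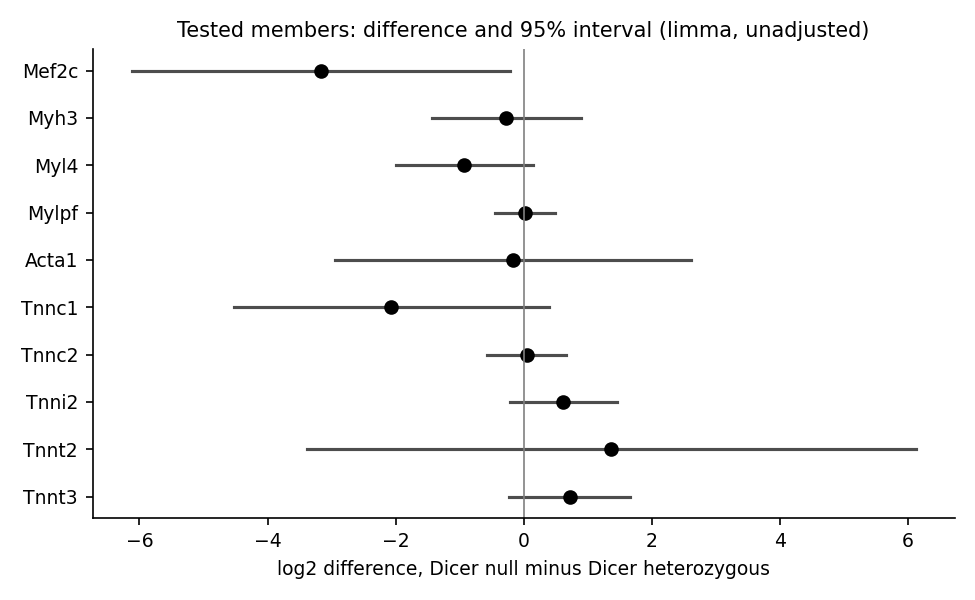
Log2 difference, Dicer null minus Dicer heterozygous (horizontal axis), of the 10 tested genes, with the unadjusted 95% interval of limma's moderated test as a line. The interval of Mef2c, -6.12 to -0.21, leaves out 0 before adjustment, that of Tnnt2 is the widest of the 10 and that of Mylpf, -0.45 to 0.49, the narrowest.

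The acetylcholine receptor genes, which appear on the surface of differentiating muscle before innervation, stayed dim. Chrna1, the subunit that carries the ligand site, had 2.28, 3.23 and 2.60 in null against 3.49, 2.25 and 2.17 in heterozygous replicates 1 to 3. Null replicate 2 and heterozygous replicate 1 alone passed 3 and the groups overlapped. Chrnd, the delta subunit, lay between 1.78 and 2.23, and Chrng, the fetal gamma subunit, between 1.41 and 3.09 over 3 probe sets. For the probe set of Chrng with the highest mean the null values 2.49, 3.09 and 2.64 lay above the heterozygous values 2.40, 2.35 and 2.09.

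The remaining members were likewise at background. Des, the intermediate filament protein of all muscle types, had 3.42, 2.80 and 2.62 in null against 3.57, 2.25 and 2.3 in heterozygous replicates 1 to 3. Replicate 1 was the highest array in both groups, which overlapped, and a second probe set for Des lay between 1.09 and 1.51. Ckm, the creatine kinase of differentiated fibres, lay between 1.90 and 2.27 over 2 probe sets. Cdh15, the M-cadherin of myoblasts and satellite cells, lay between 2.73 and 2.87.

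Array by array, the members with signal departed from their groups in different directions. At a gap of at least 2 log2 units from the mean of the other arrays of its group, heterozygous replicate 1 was high for Tnnt2, Tnnc1 and Acta1 and low for Mef2c, 3 and 1 of the 30 genes, where 1.40% of all 18193 named genes were that high and 0.846% that low. Heterozygous replicate 2 was high for Tnnt2 by this measure as well, against 0.346% of all genes, since for Tnnt2 replicate 3 alone was low. Heterozygous replicate 3 was low for Tnnt2, Tnnc1 and Acta1, against 1.49% of all genes. Null replicate 3 was low for Tnnt2 and Mef2c, against 0.808% of all genes, and null replicate 1 was high for Mef2c, against 0.517%. A gap in 1 heterozygous array shifts the mean that the others are set against, so the gaps of replicates 1, 2 and 3 are not independent.

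Heterozygous replicate 1 held the highest value in 7 of the 10 smooth muscle markers, Des among them, and in 24.8% of all tested genes. Of the 10 markers 5 had means under the minimum, so the count and that share cover unlike sets. Actg2, enteric smooth muscle actin, had 1.95, 1.92 and 1.54 in null against 6.62, 2.43 and 1.54 in heterozygous replicates 1 to 3, and the smooth muscle leiomodin Lmod1 had 2.42, 2.27 and 2.64 in null against 6.54, 3.38 and 2.80 in heterozygous replicates. Heterozygous replicate 1 alone held clear signal for Actg2 and the highest value for Lmod1, both named after their values were seen. The other 3 markers went otherwise, with Synpo2 highest in heterozygous replicate 3 (6.21), Smtn in null replicate 1 (8.09) and Myocd lowest in heterozygous replicate 1 (2.64). The summed level of the 10 smooth muscle markers was 8.17 to 9.27 on the log2 scale in null and 12.87 to 13.68 in heterozygous arrays. Values were summed on the linear scale, where Acta2 (13.1, 12.71 and 12.92 in heterozygous replicates 1 to 3) outweighed the rest. Of the 10 markers Acta2 and Tagln were called lower in null arrays (log2 differences -6.56 and -5.27, limma adjusted p = 0.0169 and 0.0238). The other tested markers, Lmod1, Synpo2 and Smtn, differed by -1.80, -0.32 and 0.34 and were not called. Lmod1 passed the minimum through heterozygous replicates 1 and 2, so the size of its difference is not resolved. The second tested probe set of Acta2, near the minimum, differed by 0.50 and was not called (limma adjusted p = 0.293). The call of the brighter one was lost without null replicate 2 or heterozygous replicate 2 and that of Tagln without any 1 of the null arrays, while the differences stayed between -7.32 and -5.87 and between -6.01 and -4.64. Myh11 and Myocd, which define mature smooth muscle, had means under 3. The part of smooth muscle genes in the values of Acta1 and Tnnc1 was not tested. Epithelial markers summed to 6.94 to 8.63 in null and 5.83 to 10.02 in heterozygous arrays, with heterozygous replicate 1 highest. Krt18 was highest in that array (9.02, against 2 to 2.68 in null and 2.09 and 2.17 in the other heterozygous arrays). Krt19 was highest there too, at 8.92, against 8.5, 8.15 and 6.49 in null replicates 1 to 3 and 7.07 and 4.75 in heterozygous replicates 2 and 3. Epcam (5.21) and Krt8 (3.66) were highest in null replicate 2. Of the 14 cardiac markers, which share Tnnt2, Tnnc1 and Myl4 as companions in the heart, Nkx2-5, Myh6, Myl7 and Myl2 lay under 3 in all arrays. Gata4, a transcription factor of the heart and of other organs, had 7.07, 8.14 and 3.43 in null against 2.17, 2.14 and 1.97 in heterozygous replicates 1 to 3. All null values lay above the heterozygous ones, which were at background, and it was not called (limma adjusted p = 0.106). Tnni3, cardiac troponin I, had 4.57, 4.13 and 4.23 in null against 5.95, 4.38 and 3.28 in heterozygous replicates, highest in replicate 1 and lowest in replicate 3 of the heterozygous group (limma adjusted p = 0.864). The part of cardiac genes in the values of Tnnt2 and Tnnc1 was not tested.

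**Figure D4:**
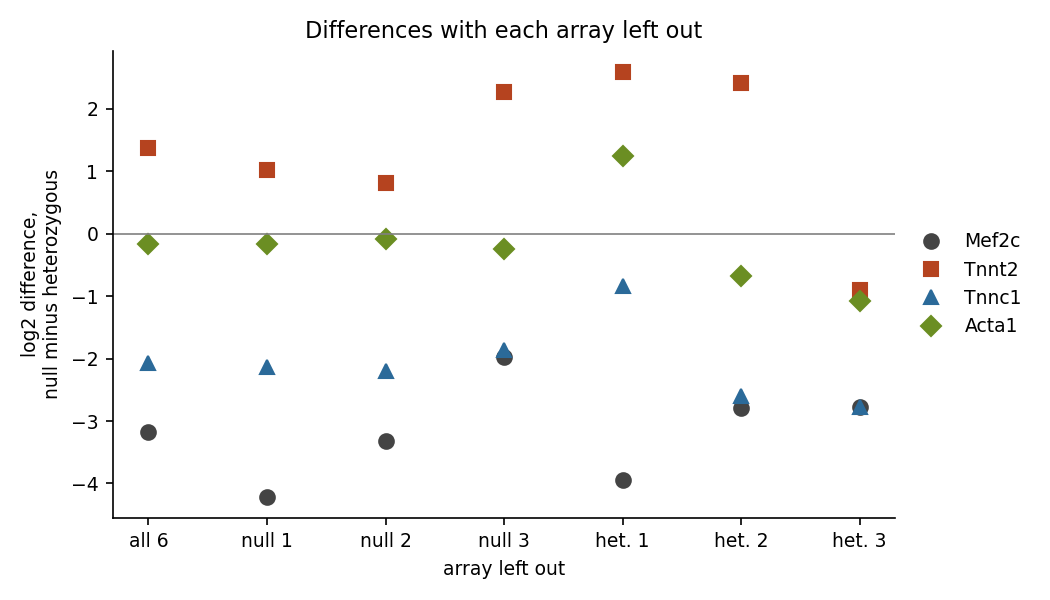
Log2 difference, Dicer null minus Dicer heterozygous (vertical axis), of Mef2c, Tnnt2, Tnnc1 and Acta1 with all 6 arrays and with each array left out in turn (horizontal axis). Acta1 moves to 1.24 without heterozygous replicate 1 and Tnnt2 to -0.90 without heterozygous replicate 3, while Mef2c and Tnnc1 stay below 0 throughout.

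The wider muscle program was set beside these genes through 6 lists of 124 genes written from general knowledge, of which 118 were measured and 55 tested. At the brightest probe set of each gene none was called higher and 2 were called lower, 3.64% in either direction, where 3.46% of all tested genes were called. Of the 55, 16 had an unadjusted p under 0.05 (29.1%, against 24% of all tested genes). Counting any tested probe set, 5 genes had a call, which adds Tpm2, Dtna and Vcam1 with 1 called probe set each, named after their values were seen. No share of all tested genes is given for this way of counting. A gene with several tested probe sets has more chances of a call, so the 5 cannot be set against the 3.46%.

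Of the 21 further myogenic transcription factors and cofactors, 12 were tested and none was called. The smallest p was that of Six4, a homeodomain factor upstream of the Myod1 family, at 10.50, 10.68 and 10.83 in null against 10.30, 10.18 and 10.02 in heterozygous replicates 1 to 3 (log2 difference 0.50, limma adjusted p = 0.157). Its groups did not overlap, and the difference was small beside those of the called genes. Several tested members that restrain or partner the Myod1 family were bright in both groups. Id3, an inhibitor that takes E proteins from Myod1, averaged 11.1 ± 0.71 in null and 12 ± 0.16 in heterozygous arrays (SD, n = 3 each, limma adjusted p = 0.196). Tcf12, one of those E proteins, averaged 11.8 ± 0.17 in null and 11.9 ± 0.02 in heterozygous arrays, and Twist1, which represses myogenesis, 12.1 ± 0.16 and 12.1 ± 0.25 (limma adjusted p = 0.788 and 0.979). These 3 were named after their values were seen, and not all of the list was bright. Mef2b averaged 3.67 ± 0.07 in null and 3.69 ± 0.73 in heterozygous arrays, and Msc and Mdfi were not among the 12 tested.

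Of 41 further sarcomere and Z-disc genes 12 were tested, and Fhl1 was called lower. Fhl1, a LIM domain protein abundant in striated muscle and present in other mesenchymal cells, had 10.92, 10.38 and 10.50 in null against 11.78, 11.76 and 11.77 in heterozygous replicates 1 to 3. The heterozygous values were nearly equal and all above the null ones (log2 difference -1.17, SE 0.19, 2.25-fold lower, limma adjusted p = 0.0386). The call was lost without any 1 array (limma adjusted p = 0.0563 to 0.147), although the difference stayed between -1.33 and -1.06. With the replicate number as a block the limma adjusted p was 0.0840. The list's median difference was -0.17.

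Tpm2, the beta tropomyosin that lies along the thin filament and is also made outside muscle, was called at 1 of its 4 tested probe sets. That one, of a type whose probes can match related transcripts, had 9.61, 9.56 and 9.56 in null against 11.54, 11.65 and 11.34 in heterozygous replicates 1 to 3 (log2 difference -1.93, limma adjusted p = 0.00978). The call was lost without null replicate 2 or null replicate 3 (limma adjusted p = 0.0586 and 0.0561). The brightest probe set of Tpm2 had 12.14, 11.93 and 11.32 in null against 12.87, 12.70 and 12.17 in heterozygous replicates (-0.78, limma adjusted p = 0.184), and the others differed by -0.84 and -0.95, not called. All 4 had their null values below the heterozygous ones. Mybpc2, fast myosin binding protein C, again named after its values were seen, had 2.80, 3.02 and 2.72 in null against 5.04, 2.42 and 2.56 in heterozygous replicates, with heterozygous replicate 1 alone clearly above the minimum.

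Of 16 genes of myoblast fusion and the satellite cell surface 12 were tested, and Jam2 was called lower. Jam2 is a junctional adhesion molecule that myocytes need for fusion in zebrafish. It had 3.40, 3.96 and 3.32 in null against 5.86, 5.34 and 6.21 in heterozygous replicates 1 to 3, with no overlap (log2 difference -2.24, SE 0.29, 4.73-fold lower, limma adjusted p = 0.0239). Its other 2 tested probe sets differed by -1.38 and -2.47 and were not called (limma adjusted p = 0.0591 and 0.0921). Their null values were 2.18, 3.01 and 2.48 for the first and 2.61, 2.89 and 2.29 for the second. Both thus passed the minimum through the heterozygous arrays, and the size of their differences is not resolved. The null values of the called probe set were themselves near the minimum, which limits the fold given for Jam2. The call was kept without heterozygous replicate 3 (limma adjusted p = 0.0336) and lost without each other array (0.0510 to 0.0981), with differences of -2.48 to -2.04, and with the replicate block it was 0.0808. Vcam1, an adhesion molecule of the satellite cell surface, was called higher at 1 of its 3 tested probe sets, at 9.95, 10.06 and 10.27 in null against 8.33, 8.38 and 9.10 in heterozygous replicates 1 to 3 (log2 difference 1.49, limma adjusted p = 0.0422). That call was kept without heterozygous replicate 3 (limma adjusted p = 0.0186) and lost without each other array (0.0762 to 0.151). The brightest probe set of Vcam1 differed by 0.95 and the remaining one by 2.05, neither of them called (limma adjusted p = 0.0939 and 0.101). The list's median difference was -0.15.

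At the brightest probe set of each gene the other 3 lists had no call. In excitation-contraction coupling, 5 of 18 genes were tested, with a median difference of -0.64. The smallest p was that of Jsrp1, a protein of the junctional sarcoplasmic reticulum, at 3.75, 3.81 and 4.10 in null against 3.48, 3.49 and 3.46 in heterozygous replicates (limma adjusted p = 0.207). Jph2, a junctophilin that ties the surface membrane to that reticulum, was high in heterozygous replicate 1 alone. It had 2.7, 2.67 and 2.77 in null against 7.51, 3.24 and 2.39 in heterozygous replicates 1 to 3, and is likewise named after its values were seen. Stac3 was also highest in heterozygous replicate 1, but Jph1 in heterozygous replicate 2, Jsrp1 in null replicate 3 and Atp2a2 in null replicate 1. Over all lists, 6 of 118 genes lay at least 2 log2 units above their group in heterozygous replicate 1, against 1.40% of all named genes. That count was 2 in heterozygous replicate 3 (1.25% of all) and 2 in null replicate 2 (0.846%).

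In the neuromuscular junction and dystrophin complex list, 8 of 16 genes were tested, with a median difference of -0.86. The middle differences were those of Sntb1 (-0.98) and Lama2 (-0.75), whose null values were all under 3. Both passed the minimum through heterozygous replicate 3 alone (5.43 and 4.93), so the size of that median is not resolved. Dtna, alpha-dystrobrevin of the dystrophin complex, had 2.89, 3.88 and 1.08 at its brightest probe set in null against 7.25, 6.02 and 6.17 in heterozygous replicates 1 to 3, and missed the threshold there (limma adjusted p = 0.0517). Another of its 4 tested probe sets was called lower, with 2.19, 3.24 and 1.26 in null against 7.10, 5.70 and 5.84 in heterozygous replicates (limma adjusted p = 0.0314). The call was kept without heterozygous replicate 3 (limma adjusted p = 0.0446) and lost without each other array (0.0532 to 0.0937). Most null values of both probe sets were at background, so both passed the minimum through the heterozygous arrays and the size of the difference is not resolved. With values under 3 raised to 3 it was -3.19 for the brightest and -3.13 for the called one. The remaining tested probe sets of Dtna differed by -1.03 and -0.58 and were not called (limma adjusted p = 0.152 and 0.271). The first of these also had all its null values under 3. In muscle metabolism 6 of 12 genes were tested, with a median difference of 0.06. Ampd1, the AMP deaminase of skeletal muscle, had the smallest p there, at 7.93, 7.14 and 7.37 in null against 6.09, 6.78 and 6.63 in heterozygous replicates 1 to 3. All null values were above the heterozygous ones (log2 difference 0.98, limma adjusted p = 0.117).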

How the data were processed

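Messenger RNA of 6 mouse sarcoma samples was measured on 3′ arrays, 3 Dicer null and 3 Dicer heterozygous by their titles. The authors deposited log2 values per probe set, rounded to 2 decimals, and per the submitters' processing notes used R 2.11.1 and GCRMA 2.20.0, which corrects background by probe sequence and normalizes quantiles between arrays. Its settings and chip definition are not stated in those sources. The values ran from 0.40 to 14.18 over 45037 probe sets, with array medians of 3.32 to 3.43. No 2 arrays were identical. The number of arrays and signal over background limit the precision.

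Gene names came from the platform annotation (34945 with 1 symbol, 932 with several, 9160 with none). With limma 3.58.1 in R 4.3.3, 24385 probe sets with a mean of at least 3 were fitted (lmFit, eBayes, no block, two-sided, adjusted p under 0.05), and each of 11425 genes took the values of its brightest tested probe set. The fit was tested on simulated data. The members and lists were chosen with earlier results of these data known. Named genes were all 30 members and, per wider list, up to 4 called genes or else that with the smallest p, with exceptions marked. Some genes of the lists were not analysed here. Same-numbered arrays deviated together with correlations of -0.06, 0.11 and 0.24, so the numbers were not taken as pairs. Figures were drawn with matplotlib 3.10.9.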

Additional observations from a re-analysis of the deposited data

How the results depend on the processing

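The count of called members was 0 in every setting run, with 3 to 30 members tested, including trend and robust moderation, gene-by-gene array weights, renormalized or centred arrays, values under 3 raised to 3, every probe set counted, probe sets without a suffix letter, and each array left out. Without a minimum, with 30 tested, 2 members, Mef2c and Myl1, had an unadjusted p under 0.05. As reported that number was 1, and over the settings it was 0 to 4. Over all probe sets, of which 756 were called, 0 were called with ordinary t statistics (4873 at an unadjusted p under 0.05), 2949 with gene-by-gene array weights, and 44 to 857 with each array left out. The cause was not tested, and the last of these fits also had fewer arrays.

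Some log2 differences turned sign. With gene-by-gene array weights Tnnt2 stood at -0.35 and Acta1 at 0.34. Over the fits with 1 array left out, Tnnt2 ran from -0.90 to 2.59, Acta1 from -1.07 to 1.24, Mylpf from -0.10 to 0.12 and Tnnc2 from -0.16 to 0.29. Mef2c stayed between -4.21 and -1.97 and Tnnc1 between -2.77 and -0.83 there, without a call in any setting (lowest limma adjusted p = 0.108 for Mef2c and 0.170 for Tnnc1).

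A replicate block left 116 probe sets and 0 members called, and Fhl1, Jam2 and Acta2 lost their calls (limma adjusted p = 0.0840, 0.0808 and 0.0509), as did the called probe sets of Dtna and Vcam1 (0.0768 and 0.0719) but not that of Tpm2 (0.0489). With ordinary t statistics Fhl1, Jam2, Acta2 and Tagln (0.110 to 0.127) and those of Tpm2, Vcam1 and Dtna (0.0657 to 0.134) lost theirs. Without a minimum that of Vcam1 did (0.0516). The brightest probe set of Dtna passed with trend and robust moderation, array weights or values raised to 3 (0.0206 to 0.0367), and that of Vcam1 with array weights (0.0146) and without heterozygous replicate 3 (0.0306). In 3 of 6 arrays the deviation correlated best with that of the same number. Without a signal above background, changes in the 20 untested members cannot be seen.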
